A study of Mus musculus with 4 samples.

Results

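Fatty acid oxidation and ketogenesis were followed in mouse liver through 35 genes, chosen by name from the 13903 genes of a deposited expression table, and all 35 were found. By the step their products serve, 5 act in fatty acid uptake and activation, 19 in mitochondria, 9 in peroxisomes and 1 in ketone body formation, while the last, Pdk4, acts in the switch between glucose and fat as fuel. All mice were OGT-Floxed, of C57BL/6J background, and ate the CDE diet (choline-deficient and ethionine-supplemented), a cause of liver injury. The OGT-KO label stands for the virus AAV8-TBG-CRE and the Control label for AAV8-TBG-eGFP. AAV8 is a viral vector, TBG a hepatocyte promoter that drives Cre recombinase or green fluorescent protein, and OGT the enzyme that attaches O-GlcNAc, a sugar, to proteins. The time label was No Recovery or 7 Day recovery after the diet, and the ages of the mice were not given in the sources used here. Each of the 4 conditions was 1 library made from equally pooled RNA of 3 mice, so no value had a replicate check and no p-value could be given.

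The 4 libraries held 19972699 to 22866431 reads on the listed genes, and values are CPM, these reads scaled to a total of 1000000 per library. At this depth 3 reads, taken as the smallest level that can be shown, corresponded to 0.131 to 0.150 CPM. Intervals are 95% exact intervals and cover counting error only. The targeted gene did not follow the labels at both times. Ogt (ENSMUSG00000034160) had 64.7 CPM in the control-labelled library and 55.3 CPM in the OGT-KO-labelled library with no recovery, but 55.7 and 77.7 CPM at 7 days, where it was higher under the OGT-KO label. Which part of the gene the floxed allele removes was not given in the sources used here, and reads from the rest of the gene may be counted. The groups are therefore named by their labels throughout, and every direction below is a direction between labels.

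Fatty acids enter hepatocytes, are held by the binding protein FABP1 and are activated to acyl-CoA by acyl-CoA synthetases. Long chains reach mitochondria as carnitine esters through CPT1A, the carrier SLC25A20 and CPT2, and are then shortened by rounds of dehydrogenation, hydration, a second dehydrogenation and thiolysis. Peroxisomes run a parallel pathway for very long, branched and bile acid side chains. In fasting liver the acetyl-CoA feeds ketone body synthesis, and the nuclear receptor PPARα is known as the main activator of many of these genes.

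The members' share of all reads was 1.44% and 1.40% in the control-labelled libraries (no recovery and 7 days, the order used for every pair of values) and 0.620% and 0.754% in the OGT-KO-labelled libraries. The OGT-KO-labelled livers thus held a smaller share of this RNA at both times. Differences are given on the scale of log2(CPM + 1), which understates the change of low genes, over the 8963 genes whose 4 libraries averaged 10 CPM or more. All 35 members passed this filter, but Acot2 and Pdk4 did so only through the OGT-KO-labelled libraries, where they were high. The members' median difference, OGT-KO minus control, was -0.48 with no recovery and -0.31 at 7 days, while the median of all genes compared was 0.51 and 0.48. Of the 35 members, 32 lay below the all-gene median with no recovery and 31 at 7 days.

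With no recovery, 10 members were at least 2-fold lower and 2 at least 2-fold higher under the OGT-KO label, where 5.69% of all genes compared were lower and 24.4% higher. At 7 days 8 members were lower and 2 higher, against 4.27% and 22.9% of all genes. The 8 lower members and the 2 higher members were past 2-fold at both times, which held for 3.74% (lower) and 19.2% (higher) of all genes. Both OGT-KO-labelled libraries were below both control-labelled libraries for 22 of the 35 members and above them for 9. Over all genes compared the balance was the other way, with 16.6% below and 70.0% above, so that 86.6% of all genes did not overlap between the labels.

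**Figure D1:**
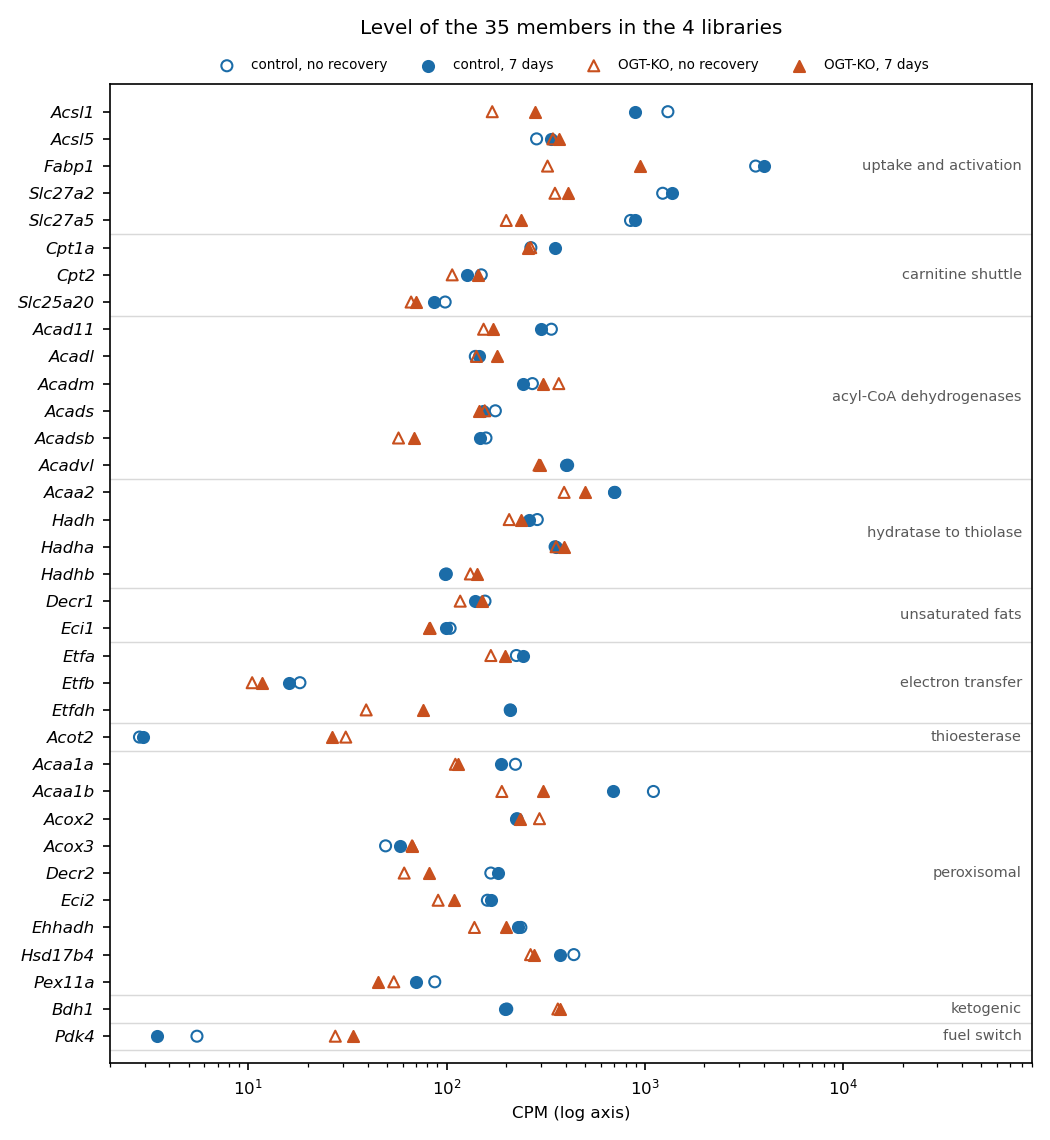
Level of each of the 35 members in CPM (log axis) in the 4 libraries, with circles for control-labelled and triangles for OGT-KO-labelled libraries, open for no recovery and filled for 7 days. The triangles lie far left of the circles for Fabp1, Acsl1, Slc27a2, Slc27a5, Etfdh and Acaa1b, far right for Acot2 and Pdk4, and close to them for most mitochondrial enzymes.

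Of the 3 steps with several members, uptake and activation had the most negative differences, with 4 of its 5 members at least 2-fold lower at both times and a median difference of -2.08 with no recovery and -1.74 at 7 days. Fabp1 (ENSMUSG00000054422), the abundant fatty acid binding protein of the liver, had 3629 and 3994 CPM in the control-labelled libraries and 323 and 949 CPM in the OGT-KO-labelled libraries. It was 11.2-fold lower with no recovery (interval 11.0 to 11.5) and 4.21-fold lower at 7 days (4.15 to 4.27). On the log2 scale no other member differed as much in either direction with no recovery. Acsl1 (ENSMUSG00000018796), the major long-chain acyl-CoA synthetase of liver, had 1309 and 890 CPM under the control label and 170 and 280 CPM under the OGT-KO label. That was 7.70-fold lower (7.44 to 7.96) and then 3.18-fold lower (3.09 to 3.27).

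The fatty acid transport proteins Slc27a2 and Slc27a5, which also activate very long chains and bile acids, were lower by similar amounts at both times. Slc27a2 had 1232 and 1372 CPM under the control label and 352 and 410 CPM under the OGT-KO label, log2 differences of -1.80 and -1.74. For Slc27a5 the levels were 848 and 898 CPM against 200 and 238 CPM, differences of -2.08 and -1.91. Acsl5, another acyl-CoA synthetase, was the exception in this step at 285 and 335 CPM under the control label and 344 and 370 CPM under the OGT-KO label. Its difference of 0.27 and 0.14 turned negative when the libraries were scaled by upper quartile or median ratio. The ratio of Acsl1 to Acsl5 within a library does not depend on scaling, and it was 4.60 and 2.66 under the control label but 0.494 and 0.757 under the OGT-KO label.

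The promoter of Fabp1 is shown because this member had the most negative difference and because its window was the member window nearest to a DR1, the direct repeat to which PPARα binds with RXR. RefSeq windows of 250 bases before to 50 after a gene's start (GRCm38.p6, not the build of the expression table) were found for 31 of the 35 members, 34 windows in all. Windows for Slc27a5, Decr1, Acaa2 and Hsd17b4 were not used here. The motif searched on both strands was AGGTCANAGGTCA. The bases upstream of the Fabp1 start, chr6:71199629-71199878 on the plus strand, hold a match with 1 mismatch 67 to 55 bases before the start. It is in capitals below and reads AGGCCATAGGTCA on the minus strand.
Fabp1: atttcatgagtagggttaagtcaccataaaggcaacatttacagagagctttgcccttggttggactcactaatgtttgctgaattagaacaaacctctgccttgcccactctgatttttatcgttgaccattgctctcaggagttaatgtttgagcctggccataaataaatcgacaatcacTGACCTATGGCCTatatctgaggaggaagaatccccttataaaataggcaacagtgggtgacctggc
Of all 32851 windows, 0.554% held a match with at most 1 mismatch, against 1 of the 34 member windows. With at most 2 mismatches the count was 4 member windows, of Fabp1, Etfa, Slc25a20 and Acox2, against 3.86% of all windows. The half-site AGGTCA stood in 5 member windows (Acadm, Acadvl, Cpt1a, Fabp1 and Slc27a2) and in 16.3% of all windows. Among the 4 genes with at most 2 mismatches, Fabp1, Slc25a20 and Etfa differed by -3.48, -0.56 and -0.43 between the labels with no recovery. Acox2 differed by 0.38, which turned negative under either other scaling. Whether a match bears on these differences was not tested. A match is a likeness of letters and not a shown binding site.

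The 3 genes of the carnitine shuttle all stayed within 2-fold between the labels. Cpt1a, the rate-controlling carnitine palmitoyltransferase of the outer membrane, had 266 CPM under both labels with no recovery. At 7 days it had 352 CPM under the control label and 258 CPM under the OGT-KO label, a difference of -0.45. Slc25a20, the carnitine-acylcarnitine carrier, differed by -0.56 and -0.31, and Cpt2, which rebuilds acyl-CoA in the matrix, by -0.48 and 0.19. The sign of Cpt2 at 7 days was negative under either other scaling. The ratio of Cpt1a to Cpt2 overlapped between the labels, at 1.78 and 2.77 under the control label and 2.49 and 1.78 under the OGT-KO label. The entry step therefore differed far less than the uptake genes before it.

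Of the 6 acyl-CoA dehydrogenases, 2 were at least 2-fold lower with no recovery and 1 of them also at 7 days. Acadsb, which acts on short branched chains from isoleucine, had 158 and 148 CPM under the control label and 57.2 and 68.3 CPM under the OGT-KO label, 2.76-fold lower (2.59 to 2.95) and 2.17-fold lower (2.04 to 2.31). Acad11, a dehydrogenase also found in peroxisomes, had 338 and 301 CPM against 154 and 172 CPM, differences of -1.13 and -0.80. The straight-chain enzymes were near level. Acadvl, for very long chains, differed by -0.48 and -0.43. Acadm, for medium chains, differed by 0.44 and 0.32, and Acadl, for long chains, by 0.02 and 0.30, but both turned negative under either other scaling. Acads, for short chains, differed by -0.18 and -0.06.

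The later steps of the mitochondrial spiral also stayed within 2-fold. Hadha, the α subunit of the trifunctional protein, had 353 and 357 CPM under the control label and 357 and 393 CPM under the OGT-KO label. Its β subunit Hadhb had 99.8 and 98.4 CPM against 132 and 143 CPM, differences of 0.40 and 0.54 that both turned negative under median-ratio scaling, as those of Hadha did. Within each library the ratio of Hadha to Hadhb was 3.54 and 3.62 under the control label and 2.71 and 2.74 under the OGT-KO label. Hadh, the short-chain hydroxyacyl-CoA dehydrogenase, differed by -0.47 and -0.14. Acaa2, the mitochondrial thiolase, had 707 and 699 CPM against 392 and 499 CPM, the lowest of these 4 genes at -0.85 and -0.49. Eci1 and Decr1, which handle unsaturated chains, differed by -0.33 and -0.41 with no recovery and by -0.29 and 0.12 at 7 days, the last negative under either other scaling.

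Electron transfer held the mitochondrial member with the most negative difference at both times. Etfdh (ENSMUSG00000027809), which passes electrons from all acyl-CoA dehydrogenases to ubiquinone, had 210 and 208 CPM in the control-labelled libraries and 39.3 and 75.7 CPM in the OGT-KO-labelled libraries. It was 5.33-fold lower with no recovery (4.96 to 5.74) and 2.75-fold lower at 7 days (2.60 to 2.91). Its partner Etfa, a subunit of the electron transfer flavoprotein, differed by -0.43 and -0.30, and the other subunit Etfb, at 10.5 to 18.2 CPM, by -0.75 and -0.43. The ratio of Etfdh to Etfa was 0.931 and 0.857 under the control label but 0.235 and 0.385 under the OGT-KO label, so the 2 genes did not change alike.

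Acot2 (ENSMUSG00000021226), a mitochondrial thioesterase that splits acyl-CoA back to the free fatty acid, went the other way. It had 2.82 and 2.95 CPM under the control label, 60 and 59 reads, and 31.0 and 26.4 CPM under the OGT-KO label. The difference was 11.0-fold with no recovery (8.43 to 14.5) and 8.93-fold at 7 days (6.82 to 11.9). Its neighbour in sequence is Acot1, the cytosolic form. The longest transcripts of the pair are 67.2% identical, and 24.5% of the 50-base windows of Acot2 also occur in Acot1, so reads may be split between them. Summed, the pair had 18.1 and 11.6 CPM under the control label and 36.4 and 39.7 CPM under the OGT-KO label, still higher but by 2.01-fold and 3.42-fold.

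In peroxisomes 3 of 9 members were at least 2-fold lower with no recovery, 2 of them also at 7 days, and none was higher. The median difference was -0.77 and -0.61, against -0.43 and -0.29 for the 19 mitochondrial members, a contrast that 1 library per condition cannot test. All 9 peroxisomal members lay below the all-gene median at both times, as did 18 and then 17 of the mitochondrial members. Acaa1b (ENSMUSG00000010651), a peroxisomal thiolase, had 1107 and 688 CPM under the control label and 190 and 307 CPM under the OGT-KO label, 5.82-fold lower (5.63 to 6.01) and 2.24-fold lower (2.18 to 2.31). Its copy Acaa1a (ENSMUSG00000036138) had 223 and 189 CPM against 111 and 114 CPM. With no recovery Acaa1a stood just past the threshold, 2.01-fold lower (1.91 to 2.11).

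The thiolase pair is shown side by side because the genes are near copies and yet differed in size of change. Their longest transcripts are 84.4% identical, and 34.0% of the 50-base windows of Acaa1a also occur in Acaa1b. Reads may therefore be split between them, but the ratio of Acaa1b to Acaa1a was 4.97 and 3.63 under the control label and 1.72 and 2.69 under the OGT-KO label. Summed, the pair had 1329 and 878 CPM against 301 and 421 CPM. The 250 bases upstream of each start, chr9:119341044-119341293 on the plus strand for Acaa1a and chr9:119157094-119157343 on the minus strand for Acaa1b (RefSeq, GRCm38.p6), are given with no motif marked.
Acaa1a: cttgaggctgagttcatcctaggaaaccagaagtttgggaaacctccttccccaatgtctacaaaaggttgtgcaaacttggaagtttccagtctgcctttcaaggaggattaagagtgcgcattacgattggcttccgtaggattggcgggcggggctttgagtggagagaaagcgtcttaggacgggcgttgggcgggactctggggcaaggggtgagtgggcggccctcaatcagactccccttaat
Acaa1b: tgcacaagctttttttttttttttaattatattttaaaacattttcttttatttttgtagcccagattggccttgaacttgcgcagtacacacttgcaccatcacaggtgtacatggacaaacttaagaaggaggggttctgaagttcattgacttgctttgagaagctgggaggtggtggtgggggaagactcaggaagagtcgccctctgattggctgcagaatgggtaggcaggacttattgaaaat
Aligned, 48.2% of 284 columns were identical, far less than in the transcripts. The nearest DR1 match had 5 mismatches in the Acaa1a window and 4 in that of Acaa1b.

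Decr2, the peroxisomal dienoyl-CoA reductase, had 167 and 182 CPM under the control label and 61.1 and 81.8 CPM under the OGT-KO label, 2.74-fold lower (2.57 to 2.91) and 2.23-fold lower (2.11 to 2.36). The remaining peroxisomal members stayed within 2-fold. Ehhadh and Hsd17b4, the L- and D-bifunctional enzymes, differed by -0.77 and -0.72 with no recovery and by -0.21 and -0.43 at 7 days. Eci2, an enoyl-CoA isomerase, differed by -0.82 and -0.61, and Pex11a, a peroxisome division factor, by -0.68 and -0.63. The oxidases of branched chains and bile acid intermediates were not lower under the deposited scaling. Acox2 differed by 0.38 and 0.07 and Acox3 by 0.44 and 0.20, all negative under either other scaling.

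**Figure D2:**
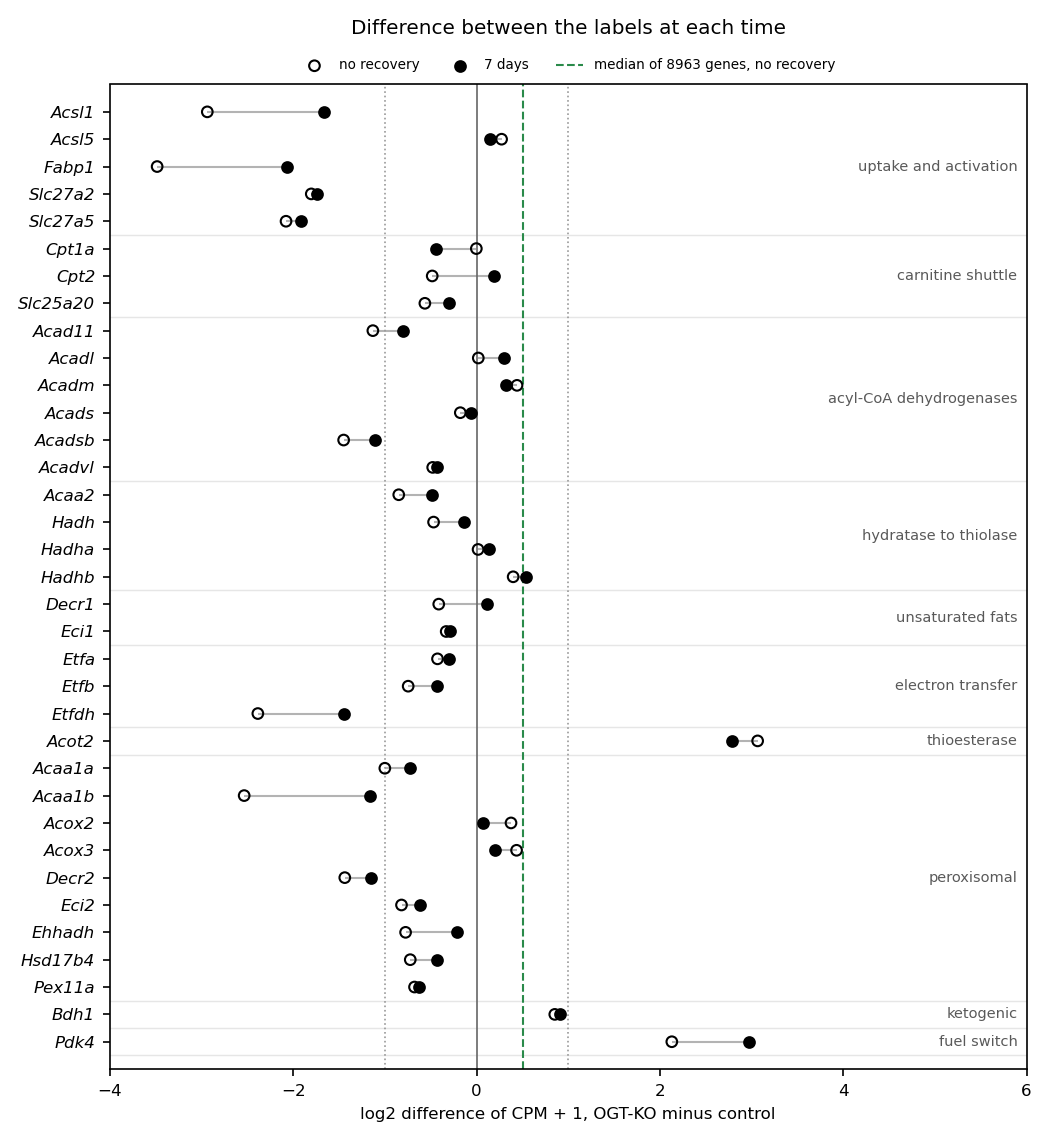
Difference of log2(CPM + 1), OGT-KO minus control, for each member with no recovery (open) and at 7 days (filled), with dotted lines at 2-fold and a dashed green line at the median of the 8963 genes with no recovery, 0.51. Most members lie left of the dashed line, Fabp1 lies at -3.48 and -2.07, and Acot2, Pdk4 and Bdh1 lie to its right.

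Sums over the members of each step gave the same order. Mitochondrial members summed to 4169 and 4082 CPM under the control label and 3145 and 3457 CPM under the OGT-KO label. For peroxisomal members the sums were 2697 and 2181 CPM against 1272 and 1432 CPM, and for uptake and activation 7303 and 7488 CPM against 1390 and 2246 CPM. Control-labelled sums were thus 1.33 and 1.18 times the OGT-KO-labelled sums in mitochondria, 2.12 and 1.52 times in peroxisomes, and 5.25 and 3.33 times in uptake and activation. The ratio of peroxisomal to mitochondrial sums was 0.647 and 0.534 under the control label and 0.405 and 0.414 under the OGT-KO label. Without the thiolase pair it was 0.328 and 0.319 against 0.309 and 0.293, so the pair carried most of that difference.

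Other mitochondrial lists gave a reference. The 12 oxidative phosphorylation genes all stayed within 2-fold, with a median of 0.03 and 0.06, and of 11 citric acid cycle genes only Mdh2, malate dehydrogenase, was past it (1.04 and 1.24). The ratio of the mitochondrial members to the oxidative phosphorylation list was 1.16 and 1.18 under the control label and 0.890 and 0.923 under the OGT-KO label. Relative to the respiratory chain sum, the mitochondrial members' sum was therefore lower under the OGT-KO label in both pairs, whatever the scaling. Single members did not all follow, since Acadm, Hadhb and Acot2 lay above the oxidative phosphorylation median at both times.

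**Figure D3:**
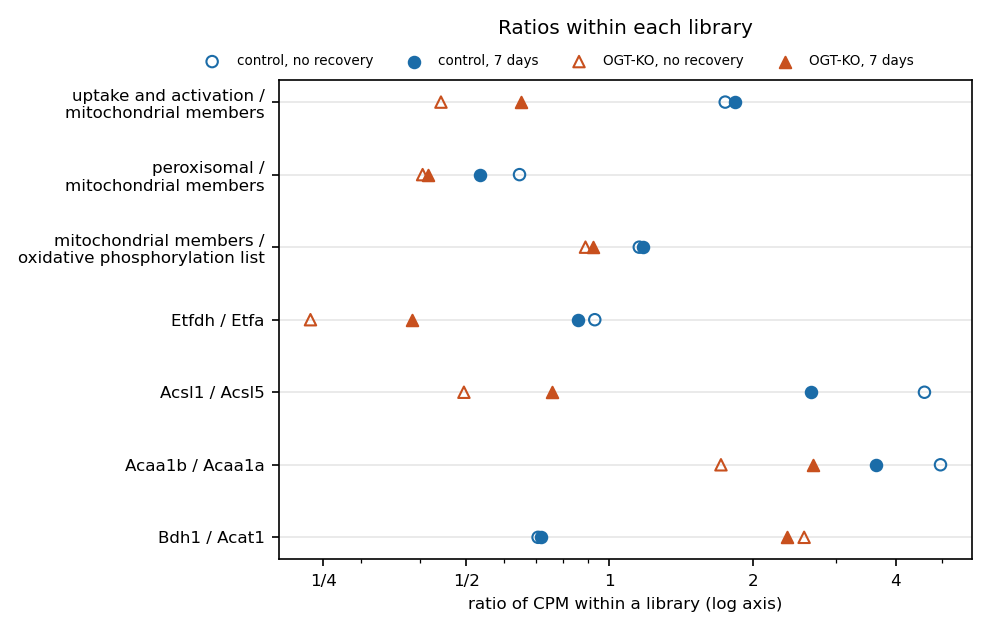
Ratios of CPM within each library (log axis), with symbols as in the plot of levels. The 7 ratios plotted were chosen from those computed, and the labels do not overlap in them. The ratio of Cpt1a to Cpt2, which overlaps, is not plotted, and 86.6% of all single genes compared did not overlap either. The ratio of uptake and activation to mitochondrial members is 1.75 and 1.83 under the control label and 0.442 and 0.650 under the OGT-KO label.

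Bdh1 (ENSMUSG00000046598), which turns acetoacetate into 3-hydroxybutyrate and is the ketogenic member, was higher under the OGT-KO label. It had 201 and 198 CPM in the control-labelled libraries and 364 and 375 CPM in the OGT-KO-labelled libraries, 1.81-fold higher (1.74 to 1.88) and 1.89-fold higher (1.82 to 1.96). This did not reach 2-fold, and the difference of 0.85 and 0.91 shrank to 0.14 and 0.23 under median-ratio scaling. Acat1, a mitochondrial thiolase that makes acetoacetyl-CoA at the start of the pathway, went the other way. It had 284 and 277 CPM against 142 and 159 CPM, 2.00-fold lower (1.92 to 2.09) and 1.74-fold lower (1.67 to 1.82). On the log2(CPM + 1) scale its difference with no recovery, -0.998, was just short of 2-fold.

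The ratio of Bdh1 to Acat1 was 0.708 and 0.716 under the control label and 2.57 and 2.36 under the OGT-KO label. Of the ketone transporters, Slc16a1 differed by 0.95 and 1.11 and Slc16a7 by 0.69 and 0.82, against all-gene medians of 0.51 and 0.48. These 2 genes were not compared under the other scalings. Bdh2, a cytosolic dehydrogenase under the filter on low values, had 256 and 221 reads under the control label and 56 and 86 reads under the OGT-KO label. Oxct1, the enzyme of ketone body use that hepatocytes normally keep very low, had 3.58 and 2.80 CPM under the control label and 23.8 and 29.3 CPM under the OGT-KO label. That was 6.67-fold higher (5.24 to 8.59) and 10.5-fold higher (7.96 to 14.0). Aacs, which uses acetoacetate in the cytosol, differed by -0.63 and -0.74.

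Pdk4 (ENSMUSG00000019577), the kinase that shuts off pyruvate dehydrogenase, had 5.50 and 3.45 CPM under the control label, 117 and 69 reads, and 27.5 and 33.9 CPM under the OGT-KO label. It was 4.99-fold higher (4.09 to 6.13) and 9.80-fold higher (7.65 to 12.7). Its relative Pdk1 went the other way, by -1.92 and -1.36. Pdk1, Acacb and Mlycd were the 3 of 6 genes compared in a list of enzymes that set the balance of malonyl-CoA and pyruvate use that were at least 2-fold lower at both times. Of all genes compared, 3.74% were. Acacb, which makes the malonyl-CoA that blocks CPT1A, differed by -1.51 and -1.18, and Mlycd, which removes it, by -1.52 and -1.12.

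Other genes of the pathway were taken from lists of genes that are not members. Of all genes compared, 3.74% were at least 2-fold lower at both times and 19.2% higher, under the deposited scaling used for the counts in this paragraph. Of 14 other peroxisomal genes, 4 were at least 2-fold lower at both times: Phyh (-1.73 and -1.38) and Hacl1 (-1.91 and -1.28), which shorten branched chains, Scp2 (-1.50 and -1.45) and the reductase Pecr (-1.67 and -1.03). Hacl1 was under 10 CPM in both OGT-KO-labelled libraries (81 and 147 reads) and passed the filter only through the control-labelled libraries. The transporter Abcd2 was higher (1.86 and 2.63). Of 14 peroxins compared, the proteins that build peroxisomes, none was past 2-fold at both times and the median was -0.34 and -0.16. Of 20 other mitochondrial genes, Pccb (-1.62 and -1.41) and Acad8 (-1.15 and -1.05) were lower and Acad9 (1.22 and 1.43), Acad12 (1.87 and 2.00) and Acot9 (2.58 and 2.32) higher.

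Other genes of fatty acid uptake and activation lay close to the shift of all genes, with a median difference of 0.49 and 0.67 over the 9 compared, against 0.51 and 0.48 over all genes, and 5 and then 4 of the 9 were below the all-gene median. Cd36 had 40.0 and 29.0 CPM under the control label and 130 and 94.6 CPM under the OGT-KO label (1.68 and 1.67), and the transporter Slc27a1 (1.44 and 1.44) and the binding protein Fabp4 (1.54 and 1.55) were also past 2-fold. Slc27a4 differed by 0.28 and 0.67, Acsl3 by 0.34 and 0.74, Acsl4 by 0.49 and 0.43 and Fabp2 by 0.31 and 0.12. With no recovery Slc27a4, Acsl3 and Fabp2 turned negative under either other scaling and Acsl4 under median-ratio scaling, and at 7 days Acsl4 and Fabp2 did under both. Fabp5 differed by 0.53 and -0.13 and Dbi, the acyl-CoA binding protein, by -0.91 and -0.45. Slc27a3, under the filter on low values, had 1.98 and 1.20 CPM against 5.03 and 4.34 CPM. Of the 9 genes compared, 3 were at least 2-fold higher at both times, where 19.2% of all genes were, and none was 2-fold lower. Under median-ratio scaling Slc27a1 (0.76 and 0.79) and Fabp4 (0.86 and 0.93) fell short of 2-fold, as did Cd36 with no recovery (0.97). Under upper-quartile scaling Slc27a1 fell just short (0.99 and 0.98). Slc27a1 and Fabp4 were under 10 CPM in both control-labelled libraries and passed the filter only through the OGT-KO-labelled libraries, as did Oxct1, Acot9, Abcd2 and Cyp4a31 among the listed genes higher at both times.

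Ppara had 59.8 and 58.2 CPM under the control label and 23.5 and 30.2 CPM under the OGT-KO label, 2.55-fold lower (2.30 to 2.82) and 1.93-fold lower (1.75 to 2.12). On the log2 scale that was -1.31 and -0.92, short of 2-fold at 7 days. Ppard, a related receptor, was the 1 of 15 regulators compared that was past 2-fold at both times, at 1.27 and 1.28. Of all genes compared, 19.2% were higher at both times and 3.74% lower. The counts of genes in this paragraph were taken under the deposited scaling, and the regulators were not compared under the other scalings. Other known targets of PPARα moved in both directions. Of 13 compared, 4 were higher at both times, Cd36, Cyp4a31 (1.32 and 2.22), Ucp2 (2.81 and 3.52) and Txnip (1.35 and 1.58), and 3 lower, Mgll (-2.16 and -1.49), Fitm1 (-4.21 and -4.07) and Cyp4a32 (-2.91 and -2.44). The shares of all genes were the same 19.2% and 3.74%, and under median-ratio scaling Cd36 fell short of 2-fold with no recovery (0.97). Fitm1 and Cyp4a32 were under 10 CPM in both OGT-KO-labelled libraries, with 16 and 6 reads and with 32 and 63 reads. They passed the filter only through the control-labelled libraries, where they were high. Cyp4a genes are near copies of each other, and single values are uncertain. Of 9 lipogenic genes, Scd1 (-2.33 and -1.89) and Thrsp (-3.12 and -3.03) were lower at both times.

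Markers of other liver cells moved with the labels. All 7 stellate cell and myofibroblast markers were at least 2-fold higher under the OGT-KO label at both times, with sums of 126 and 92.2 CPM against 2928 and 3767 CPM. So were all 5 bile duct and progenitor markers (53.7 and 69.6 CPM against 1148 and 1457 CPM) and the 5 macrophage markers compared of 6, whose full list summed to 189 and 67.2 CPM against 669 and 408 CPM. Of the leukocyte markers only Ptprc passed the filter, and it was higher at both times (2.28 and 3.20), and the list of 4 summed to 8.23 and 3.60 CPM against 43.2 and 43.9 CPM. None of the 4 endothelial markers was past 2-fold at both times (sums of 143 and 103 CPM against 224 and 165 CPM). Of 10 hepatocyte markers 6 were at least 2-fold lower with no recovery and 5 at 7 days, and their sum was 86171 and 94611 CPM against 55880 and 67122 CPM. No listed marker was at 0 in any library.

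The 10 hepatocyte markers had a median difference of -1.47 and -1.27. Albumin was at -0.21 and -0.08, Apoa1 at -1.60 and -1.97 and Hnf4a, a hepatocyte transcription factor, at -1.34 and -0.91. Over all 10 the differences ranged from -3.16 to 0.14 with no recovery and from -2.93 to 0.46 at 7 days. At both times 9 markers were below 0 and 1 above. Measured against each of these markers in the same library, Fabp1 was 1.26-fold to 12.4-fold lower under the OGT-KO label with no recovery (median 4.06-fold). At 7 days it was lower against 8 of the 10, with a median of 1.79-fold, but not against Cyp2e1 and Cyp2f2, so the size of its difference per marker rested on the marker. In bulk RNA, fewer hepatocytes and less of an RNA per hepatocyte cannot be told apart, and the part of these marker shifts in the members' differences was not tested.

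Recovery was then compared within each label. From no recovery to 7 days, no member was past 2-fold under the control label, where 0.245% of all genes were higher and 0.96% lower. Under the OGT-KO label Fabp1 alone was past 2-fold, 2.93-fold higher at 7 days (2.86 to 3.01), where 1.04% of all genes were higher and 0.435% lower. The members' median difference, 7 days minus no recovery, was -0.03 under the control label and 0.16 under the OGT-KO label, and the all-gene medians were -0.05 and -0.03. Under the OGT-KO label 27 of 35 members were above 0 and under the control label 12, though 3 and up to 7 of these signs turned under the other scalings.

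Etfdh was 1.93-fold higher at 7 days under the OGT-KO label (1.78 to 2.09) and level under the control label, at 210 and 208 CPM. Acsl1 and Acaa1b moved in opposite directions under the labels. Acsl1 was 1.47-fold lower at 7 days under the control label (1.44 to 1.50) and 1.65-fold higher under the OGT-KO label (1.58 to 1.71). For Acaa1b the values were 1.61-fold lower (1.57 to 1.64) and 1.61-fold higher (1.55 to 1.67). Ehhadh was 1.44-fold higher under the OGT-KO label (1.37 to 1.50), with -0.04 on the log2 scale under the control label. Cpt1a was the reverse case, 1.32-fold higher under the control label (1.27 to 1.37) and -0.04 under the OGT-KO label.

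The distance between the labels was smaller at 7 days than with no recovery for 29 of 35 members, against 55.1% of all genes compared. This count and the exceptions named below were taken under the deposited scaling only. All 10 members at least 2-fold lower with no recovery were nearer to the control label at 7 days, but so were 87.6% of the 510 genes lower by that measure. Their median went from -1.94 to -1.31, and that of the 510 genes from -1.63 to -1.20. The exceptions, with a larger distance at 7 days, were Cpt1a, Acadl, Hadha, Hadhb, Bdh1 and Pdk4. Even so, 8 members remained at least 2-fold lower at 7 days, and Fabp1 had not reached the level of either control-labelled library.

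**Figure D4:**
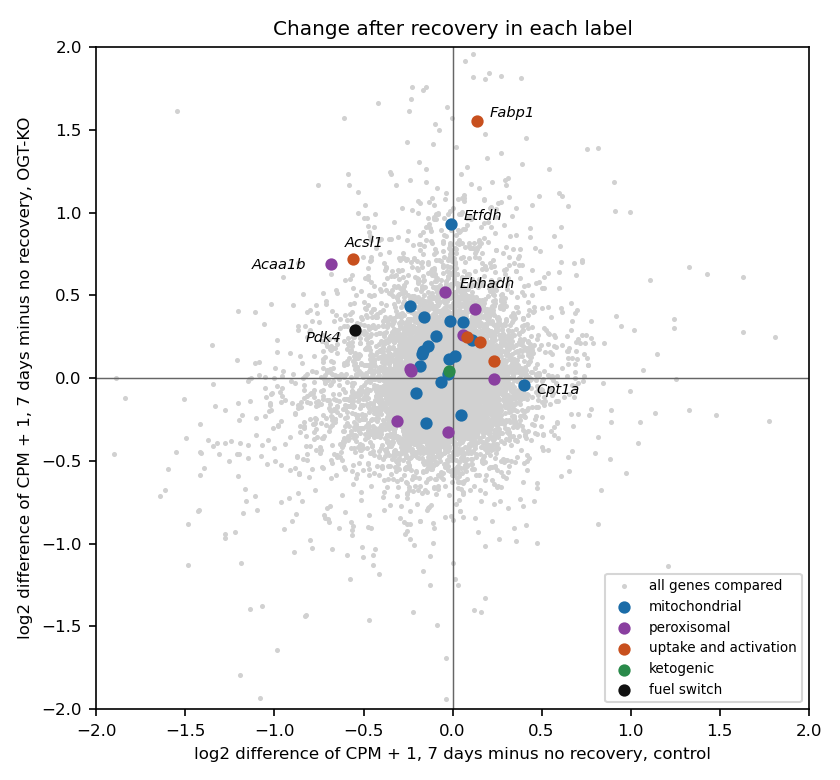
Change from no recovery to 7 days as a difference of log2(CPM + 1), under the control label (horizontal) and the OGT-KO label (vertical), with members coloured by step and all genes compared in grey (13 genes lie beyond the axes). Fabp1 and Etfdh stand high above 0 on the vertical axis and near 0 on the horizontal, while Acsl1 and Acaa1b lie at upper left.

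Scaling bears on the directions. The all-gene median of 0.51 and 0.48 under the deposited scaling became 0.04 and 0.01 under upper-quartile scaling and -0.19 and -0.18 under median-ratio scaling. The share of higher genes among those past 2-fold, 81.1% with no recovery and 84.3% at 7 days, became 55.2% and 62.1%, and then 40.4% and 49.6%. Under the other scalings the lower members stayed lower and Acot2, Pdk4 and Bdh1 stayed higher, but the remaining 7 members above 0 with no recovery turned negative.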

How the data were processed

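Bulk mRNA-seq libraries from total RNA of mouse liver were analysed. The authors deposited CPM, read counts scaled to a total of 1000000 per library, and all values were whole multiples of 1 read within 0.1 read, so whole reads were recovered. The submitters' processing notes name STAR, DESeq2 and GRCm39, and how reads on several copies or on either strand were counted is not given in the sources used here. A gene was compared if its 4 libraries averaged 10 CPM or more, on log2(CPM + 1), with a pseudocount of 1 and a 2-fold threshold. Counting intervals are Clopper-Pearson intervals for levels and exact conditional binomial intervals for folds of CPM. Members and lists were chosen with earlier results of these data known. All members were named, as were the genes of the lists of other ketogenic genes and uptake genes (some listed genes are not reported here), and from other lists those past 2-fold in 1 direction at both times. Genes given beside a result, such as Ppara and Cyp4a10, were added after their values were seen. Alternatives were other pseudocounts, filters, scalings and thresholds, an exact binomial test of the reads, and lists without uncertain members. Steps were tested on simulated data. Python 3.11 with numpy 2.4.6, pandas 2.3.3 and scipy 1.17.1 was used. Of 13903 identifiers 13893 matched a table of gene names.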

Additional observations from a re-analysis of the deposited data

Results flagged for a closer look

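These genes stood out because a difference between conditions had opposite signs under the 2 labels or at the 2 times, with the values at least 1 apart on the log2(CPM + 1) scale. Whether they differ was not tested, since each condition was 1 library. Among members, Acsl1 changed from no recovery to 7 days by -0.56 under the control label and by 0.72 under the OGT-KO label, and Acaa1b by -0.68 and 0.69.

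Among listed genes that are not members, the fatty acid ω-hydroxylases Cyp4a10 and Cyp4a14 and the thioesterases Acot1 and Acot4 showed the same opposite directions. Cyp4a10 changed by -1.55 under the control label and by 1.61 under the OGT-KO label, from 138 to 46.4 CPM and from 13.3 to 42.5 CPM. Cyp4a14 changed by -1.90 and 2.32, so that its difference between the labels was -1.67 with no recovery and 2.55 at 7 days. Acot1 changed by -0.75 and 1.17, with differences between the labels of -1.35 and 0.57. For Acot4 the changes were -0.19 and 1.31. Lpin1, a phosphatidate phosphatase and coactivator of PPARα, differed between the labels by 0.27 with no recovery and by -0.93 at 7 days. Cyp4a10, Cyp4a14 and Acot1 have near copies, and their single values are uncertain.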

How the results depend on the processing

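No paired analysis was possible because each condition was 1 library and the labels carry no replicate numbers. With 1 library per condition no replicate could be left out either. No member called at 2-fold changed sign under any alternative run. Upper-quartile scaling raised the number of members lower to 17 with no recovery and 12 at 7 days, while the share of all genes lower rose to 10.9% and 8.26%, with medians of -0.90 (mitochondrial), -1.25 (peroxisomal) and -2.56 (uptake and activation), and of -0.77, -1.09 and -2.22 at 7 days. Median-ratio scaling raised it to 23 and 17, and the share of all genes to 15.4% and 11.8%, with medians of -1.14, -1.49 and -2.80, and of -0.97, -1.29 and -2.42. At a 4-fold threshold 5 members were lower with no recovery and 1 at 7 days, against 1.83% and 0.971% of all genes. At this threshold 2 members were higher at each time, where 7.71% and 8.79% of all genes were. After recovery 0.0781% of all genes and 0 members were 4-fold higher under the OGT-KO label. With a mean of at least 50 CPM required, 0 members were higher at either time, since Acot2 and Pdk4 were left out. The shares of genes higher were then 16.3% and 15.6%. The members lower stayed at 10 and 8, but the share of all genes lower rose to 10.9% and 8.73%. A pseudocount of 10 moved the uptake and activation median with no recovery to -2.03. Without Eci2 and Acad11, whose place is less certain, the 7-day medians were -0.21 (mitochondrial) and -0.53 (peroxisomal), and without Acaa1a, Acaa1b and Acot2 the peroxisomal one was -0.43. Without Fabp1 the members' share of reads was 1.07%, 0.588%, 0.996% and 0.659% in the control-labelled and OGT-KO-labelled libraries with no recovery and then at 7 days. The exact binomial test, which compares libraries and not conditions, kept every gene past 2-fold between the labels. At this depth counting error is small beside 2-fold, so the test could hardly drop a called gene and does not bear on the calls.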
